A study of Mus musculus with 13 samples.

Results

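Mouse embryonic fibroblasts after 1 day in the chemical cocktail VCR (the D1 library) were set against the untreated fibroblasts of the same experiment (the D0 library), across all genes of the deposited count table. The comparison takes 2 of the 13 samples of the series, which holds 9 RNA-seq libraries, and 10532 of the 30332 genes in the table had a level of 5 CPM, counts scaled to library size, or more in either library. VCR stands for valproic acid, CHIR99021 and RepSox, and the study followed fibroblasts from the start of this treatment into later neural stages. Both libraries came from fibroblasts of E13.5 mouse embryos of a Nestin::GFP transgenic strain, in which green fluorescent protein reports Nestin, a gene of neural progenitors. Both were labelled passage 3 and were not sorted. The D1 cells were labelled as treated with VCR and the D0 cells as primary cells with no treatment. According to the protocol text, cells stood for a day in DMEM under 21% oxygen before a conditional medium with the chemicals was added, under 21% or 5% oxygen. The labels do not say which medium or oxygen level either library had. No library of untreated cells kept for the same day was used here, so the chemicals, the medium, the oxygen level and the time in culture cannot be told apart. Each day was 1 library, so every difference is between 2 libraries and no spread between cultures can be given. How many embryos or cultures were pooled is not given in the sources used here.

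Valproic acid inhibits histone deacetylases, the enzymes that remove acetyl groups from histone tails. CHIR99021 inhibits GSK3, the kinase that marks beta-catenin for destruction, so that beta-catenin can gather in the nucleus and act with TCF and LEF factors on Wnt target genes. RepSox inhibits the type I TGF-beta receptor, which passes the signals of TGF-beta and activin to Smad proteins. In fibroblasts that signal is known for holding up collagen, elastic fibre and contractile genes. The repressor REST and deacetylases are known for keeping neuronal genes silent in cells outside neural tissue.

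The D1 library held 33655532 and the D0 library 36751356 estimated counts, where 3 counts correspond to 0.0891 CPM at D1 and 0.0816 CPM at D0. Mitochondrially encoded genes took 1.96% of the counts at D1 and 3.39% at D0, and ribosomal protein genes took 3.77% at D1 and 3.99% at D0. A fibroblast list passed the floor of 5 CPM with 15 of its 16 measured genes, and summed to 4266 CPM at D1 and 5946 CPM at D0. None of these was 2-fold or more higher at D1 and 3 were 2-fold or more lower, Pdgfrb, Gsn and Cspg4 (17.9 CPM at D1 and 40.3 CPM at D0), with the surface gene Thy1 at 169 CPM at D1 and 149 CPM at D0 and the filament gene Vim at 937 CPM at D1 and 1459 CPM at D0. Lists for other cells differed in level. The macrophage list had 4 of 15 genes past the floor and summed to 77.1 CPM at D1 and 119 CPM at D0, of which Lyz2 made up 39.5 CPM at D1 and 74.4 CPM at D0, with Cd68 at 13.1 CPM at D1 and 7.07 CPM at D0 and the pan-leukocyte gene Ptprc at 0.297 CPM at D1 and 1.33 CPM at D0. Endothelial markers summed to 32.5 CPM at D1 and 35.7 CPM at D0, with 0 counts of Cdh5 at D1 and 1 count at D0. Keratinocyte markers summed to 68.8 CPM at D1 and 75.4 CPM at D0, with Krt5 at 0 counts at D1 and 5 counts at D0. Erythroid and lymphoid markers had none of 14 genes past the floor and summed to 4.43 CPM at D1 and 3.91 CPM at D0. Cartilage and bone markers summed to 4902 CPM at D1 and 3999 CPM at D0, nearly all of it Spp1 (4075 CPM at D1 and 2848 CPM at D0) and Mgp (798 CPM at D1 and 1098 CPM at D0), with the cartilage collagen gene Col2a1 under the floor at 2.88 CPM at D1 and 4.87 CPM at D0. Smooth muscle and pericyte markers summed to 336 CPM at D1 and 287 CPM at D0, and adipocyte markers to 151 CPM at D1 and 291 CPM at D0. The part of such cells in the results was not tested. In bulk RNA, fewer cells of a type and less RNA per cell cannot be told apart.

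Across the genes tested, 698 were at least 2-fold higher at D1 on the scale of log2(CPM + 1), which is 6.63% of 10532, and 623 genes (5.92%) were at least 2-fold lower. Such genes are called higher or lower below, and together they were 12.5% of the genes tested. A list's count near 6.63% higher or 5.92% lower says nothing particular of that list. The middle of the table hardly moved: the median difference was 0.04, and the lower and upper quartiles were -0.34 and 0.42 on the log2 scale. The ends were wider, with 122 genes at least 2 log2 units higher and 83 at least 2 lower, and 28 and 13 genes past 3 units. Of the 698 genes called higher, 234 were under 5 CPM at D0, and of the 623 called lower, 166 were under 5 CPM at D1. A gene that passed the floor through a single library is higher in that library by the way it entered, so a list's count of calls can rest on the floor. Both levels are given for most such genes named. With no replicate, calls have no p-value. Intervals given with fold values are exact 95% intervals of the CPM ratio, cover counting error only and say nothing of the spread between cultures. Because CPM leaves transcript length out, no gene's level is set against another's.

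**Figure D1:**
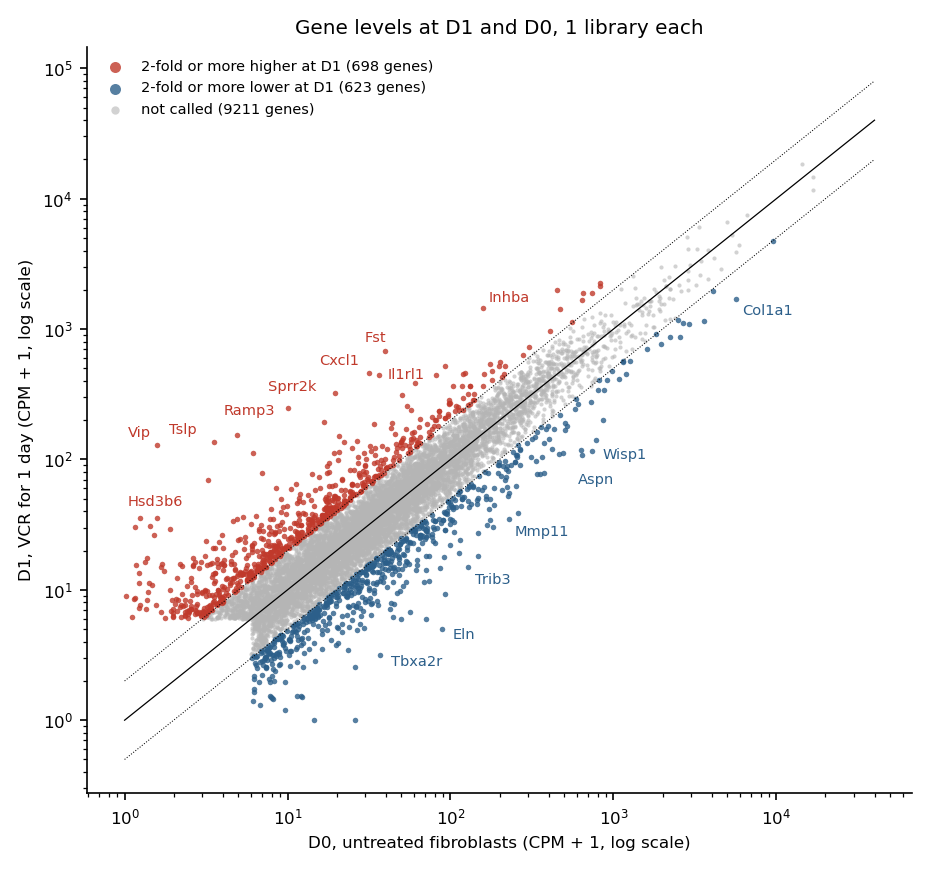
Each dot is a gene with 5 CPM or more in either library, plotted at its CPM + 1 at D1 (vertical log axis) against its CPM + 1 at D0 (horizontal log axis), 1 library each; dotted lines mark 2-fold. The 698 genes above the upper line are red and the 623 below the lower line are blue, with secreted signals such as Vip, Tslp and Inhba far above it and Eln, Tbxa2r and Trib3 far below it.

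Secreted signals were among the genes that led the upward side. Vip, the vasoactive intestinal peptide of neurons, was at 128 CPM at D1, against 0.571 CPM at D0, or 224-fold higher (95% interval 146 to 362). Tslp, thymic stromal lymphopoietin, an epithelial and stromal cytokine, was at 135 CPM at D1, against 2.56 CPM at D0, and Stc1, the glycoprotein hormone stanniocalcin, at 153 CPM at D1, against 3.86 CPM at D0. All of these were under 5 CPM at D0. Fst, which encodes follistatin, a binder of activins, was at 683 CPM at D1 and 38.9 CPM at D0, or 17.5-fold higher (95% interval 16.6 to 18.5). Its ligand partner Inhba, the activin A subunit, was at 1453 CPM at D1 and 157 CPM at D0, or 9.25-fold higher (95% interval 9.01 to 9.51). Tnfsf11, the osteoclast factor RANKL, was at 69.1 CPM at D1 and 2.23 CPM at D0, while its decoy receptor Tnfrsf11b was at 186 CPM at D1 and 71.2 CPM at D0. Both genes of this pair were thus called higher, and so were both genes of the activin pair.

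Genes of other kinds stood among the leaders too. Ramp3, a partner protein that changes the ligand choice of the calcitonin-receptor-like receptor, was at 245 CPM at D1 and 9.09 CPM at D0, or 27-fold higher (95% interval 24.2 to 30.2), and the receptor gene Calcrl itself was under the floor at 3.72 CPM at D1 and 4.50 CPM at D0. Il1rl1, the receptor of IL-33, was at 442 CPM at D1 and 35.6 CPM at D0, or 12.4-fold higher (95% interval 11.7 to 13.1). Lrrc32, which anchors latent TGF-beta at the cell surface, was at 384 CPM at D1 and 59.6 CPM at D0. Serpinb2, an inhibitor of plasminogen activators, was at 29.1 CPM at D1 and 0.163 CPM at D0 and back at 1.58 CPM in the D2 library. Hsd3b6, a steroid dehydrogenase, was at 34.5 CPM at D1 and 0.246 CPM at D0, Mcpt8, a protease known from basophils, at 110.2 CPM at D1 and 5.14 CPM at D0, and Twist2, a mesenchymal transcription factor, at 312 CPM at D1 and 49.1 CPM at D0. Genes best known from neurons stood in the same range. The tubulin genes Tuba8 and Tubb4a were at 25.3 CPM at D1 and 0.517 CPM at D0 and at 32.7 CPM at D1 and 3.62 CPM at D0. Rab3c, a vesicle GTPase gene, was at 25.6 CPM at D1 and 2.96 CPM at D0, and Bex1, a small signalling adaptor gene of brain, at 34.7 CPM at D1 and 0.590 CPM at D0. The brain sulfotransferase gene Sult4a1 was at 20.1 CPM at D1 and 2.61 CPM at D0. Zfp760, a zinc finger gene, was at 35.3 CPM at D1 and 4.32 CPM at D0, Pxmp2, a peroxisomal membrane gene, at 22.2 CPM at D1 and 2.80 CPM at D0, and Slpi, a secreted protease inhibitor, at 34.2 CPM at D1 and 3.86 CPM at D0.

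Lipid, matrix and tendon genes led the downward side. Eln, which encodes elastin, was at 4.01 CPM at D1 and 87.9 CPM at D0, or 21.9-fold lower (95% interval 18.5 to 26.2). Insig1, the anchor that holds SREBP in the endoplasmic reticulum when sterols are plentiful, was at 4.99 CPM at D1 and 69.5 CPM at D0, or 13.9-fold lower (95% interval 11.9 to 16.4). Tbxa2r, the thromboxane receptor, was at 2.14 CPM at D1 and 36.1 CPM at D0, or 16.9-fold lower (95% interval 13.3 to 21.7). All of these were under 5 CPM at D1. Scx, the transcription factor scleraxis of tendon cells, was at 2.44 CPM at D1 and 22.6 CPM at D0, and Wisp1, a matricellular protein of the CCN family, at 116 CPM at D1 and 737 CPM at D0. Ldb2, a cofactor gene of LIM-domain factors, was at 5.17 CPM at D1 and 43.3 CPM at D0 and Fam20a, a pseudokinase gene of the secretory pathway, at 10.6 CPM at D1 and 72.8 CPM at D0. Chodl was at 1.57 CPM at D1 and 25 CPM at D0, Anxa8, a membrane-binding annexin gene, at 5.70 CPM at D1 and 55.6 CPM at D0, and Nrep at 17.1 CPM at D1 and 145 CPM at D0. Genes further down the order were of mixed kinds. The stem cell receptor gene Lgr5 was at 30.2 CPM at D1 and 165 CPM at D0 and the mitochondrial thioesterase gene Acot2 at 4.47 CPM at D1 and 26.7 CPM at D0. Arap1, Phyhd1, Rab3il1, Tmem140 and Zcchc5 were also called, with fold values between 5.31-fold for Arap1 and 9.81-fold for Zcchc5. Of these, Tmem140 (4.08 CPM at D1 and 28.6 CPM at D0) and Zcchc5 (4.99 CPM at D1 and 49 CPM at D0) were under 5 CPM at D1. Max, the partner that MYC needs to bind DNA, was at 6.95 CPM at D1 and 42.3 CPM at D0, or 6.08-fold lower (95% interval 5.29 to 7.0), while Myc was at 41 CPM at D1 and 54.3 CPM at D0 and was not called.

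The direct targets of the cocktail changed little in their own transcripts. Of 13 targets past the floor, none was called higher and 1 was called lower, Hdac7, with 12.3 CPM at D1 and 26.6 CPM at D0. The class I deacetylase genes Hdac1 and Hdac2 were at 246 CPM at D1 and 170.4 CPM at D0 and at 243 CPM at D1 and 162 CPM at D0, both above D0 by less than 2-fold. Gsk3a was at 24 CPM at D1 and 35.7 CPM at D0 and Gsk3b at 69.3 CPM at D1 and 96.2 CPM at D0. The TGF-beta receptor gene Tgfbr1, whose product RepSox blocks, was at 16.6 CPM at D1 and 20.2 CPM at D0, and Tgfbr2 at 67.3 CPM at D1 and 84.3 CPM at D0. Their median difference was -0.32, and it changed sign when no floor was used. Among 18 genes for readers, writers and corepressors of acetylation, Brd2 alone was called, at 38.8 CPM at D1 and 90.1 CPM at D0, and the acetyltransferase genes Ep300 (13.52 CPM at D1 and 19.2 CPM at D0) and Crebbp (26.4 CPM at D1 and 39.2 CPM at D0) were both below D0 by less than 2-fold.

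Of 17 genes that deacetylase inhibitors are known to raise, 1 was called higher and 5 lower, with a median of -0.08. Glrx, a thiol oxidoreductase gene, was at 103 CPM at D1 and 25.9 CPM at D0, and the linker histone gene H1f0, a classical responder, was at 382 CPM at D1 and 219.9 CPM at D0, which fell short of 2-fold. The cell cycle inhibitor gene Cdkn1c was called lower at 54 CPM at D1 and 228 CPM at D0, as was gelsolin, Gsn, an actin-severing protein, at 558 CPM at D1 and 1141 CPM at D0. Klf2 (4.49 CPM at D1 and 20.4 CPM at D0), Klf4 (15.7 CPM at D1 and 42.1 CPM at D0) and Gadd45b (15 CPM at D1 and 47.3 CPM at D0) were the other 3. Of 30 REST-repressed neuronal genes, 12 passed the floor, of which 6 were called higher and 1 lower, with a median of 1.17. Among them Vgf, a secreted neuropeptide precursor, was at 13.8 CPM at D1 and 0.680 CPM at D0, the synaptic vesicle gene Syn1 at 15.2 CPM at D1 and 1.96 CPM at D0, and the adhesion gene Nrcam at 14.6 CPM at D1 and 2.22 CPM at D0. Gap43, of growing axons, was at 191 CPM at D1 and 42.9 CPM at D0, or 4.45-fold higher (95% interval 4.21 to 4.70), Snap91 was at 7.96 CPM at D1 and 2.15 CPM at D0, and Stmn2, a microtubule regulator gene of neurons, was at 36.5 CPM at D1 and 13.8 CPM at D0. The complexin gene Cplx2 was called lower, at 1.70 CPM at D1 and 7.04 CPM at D0, and Rest itself was at 65.9 CPM at D1 and 62.2 CPM at D0. Vgf, Syn1, Nrcam and Snap91 were under 5 CPM at D0 and so could pass the floor only by being higher at D1. With a floor of 20 CPM 2 of 6 genes were called higher with a median of 0.31, and with no floor 9 of 30 with a median of 0.33.

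Wnt target genes were called in both directions. Of 11 past the floor, 2 were called higher and 2 lower, with a median of -0.40 that turned positive with a floor of 1 CPM or none, where 5 were called higher and 2 lower. The Dishevelled antagonist gene Nkd2 was at 101 CPM at D1 and 29.1 CPM at D0, or 3.45-fold higher (95% interval 3.22 to 3.70), and the TCF gene Tcf7 was at 6.48 CPM at D1 and 1.28 CPM at D0. Axin2, the best known feedback target, stayed under the floor, at 2.23 CPM at D1 and 0.327 CPM at D0, a ratio of 6.82-fold (95% interval 3.69 to 13.8). Against these, Lgr5 was at 30.2 CPM at D1 and 165 CPM at D0, or 5.47-fold lower (95% interval 5.12 to 5.86), Sox9, a chondrogenic factor gene, was at 6.54 CPM at D1 and 22.6 CPM at D0, and the cyclin gene Ccnd1 was at 157 CPM at D1 and 260.0 CPM at D0. Ctnnb1, which encodes beta-catenin itself, was at 182 CPM at D1 and 299 CPM at D0.

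Targets of TGF-beta divided between a set that was already lower at D1 and a set that was not. Of 24 genes, 8 were called lower and 1 higher, with a median of -0.25. Feedback genes of the Smad pathway were on the lower side, with Pmepa1 at 76.2 CPM at D1 and 339 CPM at D0, Skil at 10.0 CPM at D1 and 34.1 CPM at D0 and Ski at 24 CPM at D1 and 52.2 CPM at D0. The ubiquitin-ligase adaptor gene Spsb1 was at 15 CPM at D1 and 31.5 CPM at D0, the oxidase gene Nox4 at 7.63 CPM at D1 and 31 CPM at D0 and the clock repressor gene Bhlhe40 at 18.3 CPM at D1 and 112 CPM at D0. Effector genes of the matrix joined them, with fibronectin, Fn1, at 864 CPM at D1 and 2233 CPM at D0 and the collagen-binding integrin gene Itga11 at 57.1 CPM at D1 and 205 CPM at D0. Not called were Ctgf, a matricellular protein gene, at 1136 CPM at D1 and 1030.2 CPM at D0, and the inhibitory Smad gene Smad7 at 12.5 CPM at D1 and 13.7 CPM at D0. Angptl4, a lipase inhibitor gene, was called higher, at 199 CPM at D1 and 79.3 CPM at D0. In the D2 library Ctgf stood at 136 CPM and Smad7 at 6.05 CPM, both lower than on either earlier day. The list median against D0 was -1.15 at D2. The D2 difference uses the same D0 library, so whatever is particular to D0 enters both.

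Targets and antagonists of BMP, the sister pathway that runs through other receptors, leaned the other way. Of 14 past the floor, 3 were called higher and none lower, with a median of 0.75. Fst led them, followed by the transcription factor genes Atoh8 (25 CPM at D1 and 10.9 CPM at D0) and Id4 (48.9 CPM at D1 and 23.1 CPM at D0). The general BMP target genes Id1 (161 CPM at D1 and 89.8 CPM at D0), Id2 (96.3 CPM at D1 and 55.7 CPM at D0) and Id3 (1042 CPM at D1 and 636 CPM at D0) were all above D0 by less than 2-fold. Bmp4 was at 20.6 CPM at D1 and 33.1 CPM at D0 and Grem1, a BMP antagonist gene, at 226 CPM at D1 and 173 CPM at D0.

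**Figure D2:**
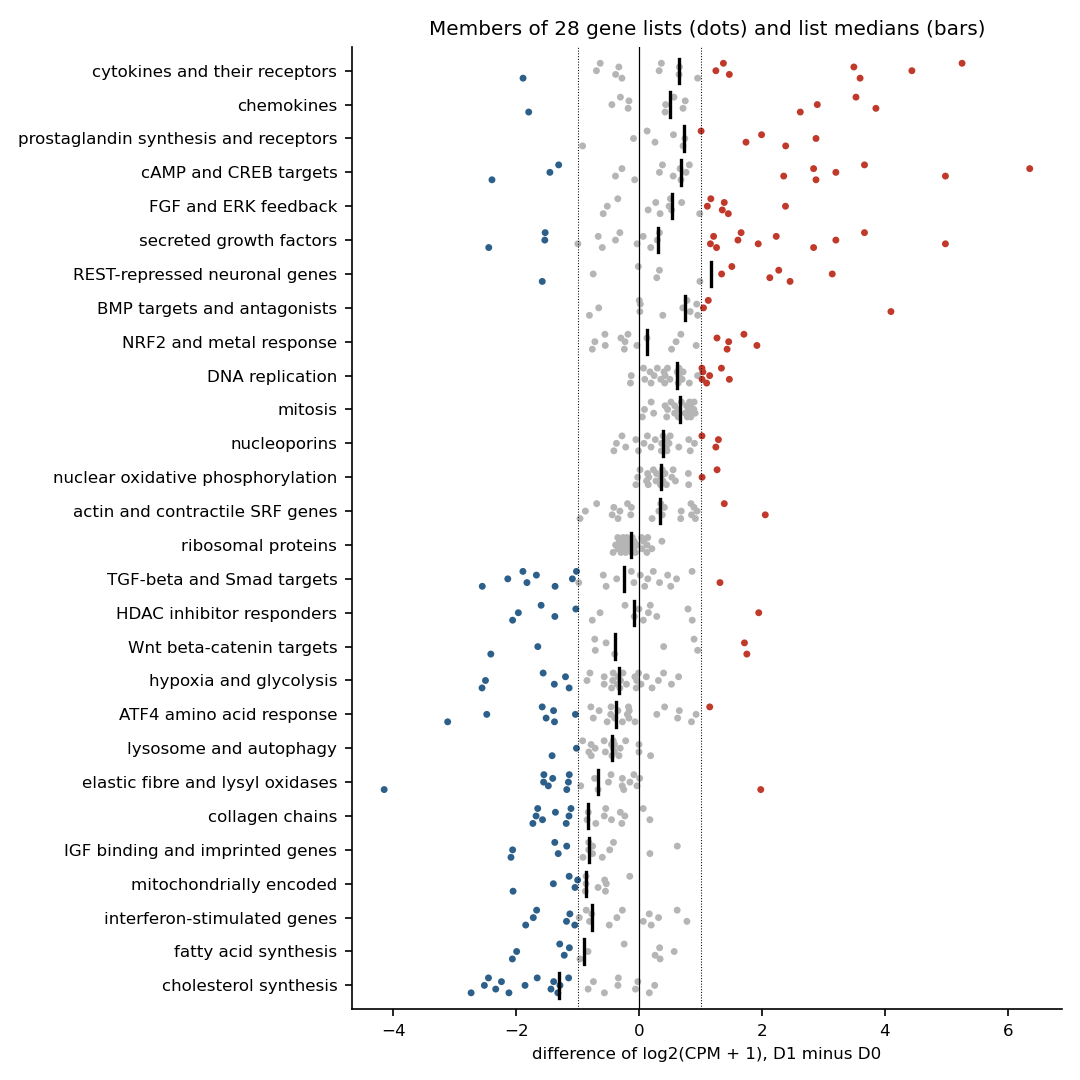
Each dot is a gene of a list with 5 CPM or more at D1 or D0, at its difference of log2(CPM + 1), D1 minus D0 (horizontal axis); red and blue dots are called higher and lower, and black bars are list medians. The cAMP, cytokine and growth factor lists reach furthest to the right, and the cholesterol list has the lowest median of those drawn, -1.31.

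Neutrophil-attracting chemokines were among the clearest changes of the day. Of 14 chemokine genes past the floor, 4 were called higher and 1 lower, with a median of 0.50. With no floor the median of the 20 genes was 0.08. Cxcl1 was at 455 CPM at D1, against 30.6 CPM at D0, or 14.9-fold higher (95% interval 14 to 15.8), and Cxcl5 was at 191 CPM at D1 and 15.7 CPM at D0, or 12.2-fold higher (95% interval 11.2 to 13.3). Cxcl2 (7.68 CPM at D1 and 0.163 CPM at D0) and Cxcl3 (6.67 CPM at D1 and 0.245 CPM at D0) were also called higher, but passed the floor through D1 alone. Ppbp, a platelet chemokine gene outside the list, was at 29.9 CPM at D1 and 0.435 CPM at D0. The monocyte chemokines behaved otherwise. Ccl2 was at 326 CPM at D1 and 366 CPM at D0 and Ccl7 at 426 CPM at D1 and 483 CPM at D0, and neither was called. Cxcl12, which retains blood stem cells and guides neurons, was called lower, at 104 CPM at D1 and 362 CPM at D0, or 3.50-fold lower (95% interval 3.37 to 3.63).

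The chemokines that were higher lie together in the genome, an arrangement looked at after their values were seen. On chromosome 5 of GRCm38.p6, between Cxcl5 at 90759298 and Areg ending at 91148432, stand Cxcl5, Ppbp, Pf4, Cxcl3, Cxcl15, Cxcl1, Cxcl2, Mthfd2l and the EGF-family ligand genes Epgn, Ereg and Areg. In the wider region, which takes in Rassf6 on the near side, 12 genes were matched, 10 passed the floor, and 9 of these were called higher and none lower. Pf4, platelet factor 4, was at 14.7 CPM at D1 and 0.707 CPM at D0 and Rassf6 at 38.6 CPM at D1 and 8.08 CPM at D0. The ligand gene Ereg was at 59.6 CPM at D1 and 7.46 CPM at D0 and Areg at 16.6 CPM at D1 and 0.381 CPM at D0. The folate enzyme gene Mthfd2l, in the midst of them, was not called at 22.3 CPM at D1 and 12.6 CPM at D0, and Epgn and Cxcl15 stayed under the floor, Epgn at 0.0891 CPM at D1 and 0.0272 CPM at D0 and Cxcl15 at 1.42 CPM at D1 and 2.04 CPM at D0. Ppbp, Pf4, Cxcl3, Cxcl2 and Areg were under 5 CPM at D0 and passed the floor through D1 alone. These chemokine genes resemble each other, and how the estimated counts divide reads between such copies was not tested.

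The promoters of this cluster are shown because Cxcl1, Cxcl2 and Cxcl3 carry the same run of letters close to their starts. The stretch is from RefSeq, build GRCm38.p6, the bases before the annotated start of transcription, and capitals mark matches to GGGAA followed by any 3 bases and CC, a form of the NF-kappaB recognition letters, searched on both strands. The run GGGAATTTCCC holds a match on each strand, which overlap. The stretch of Cxcl1 lies at chr5:90890995-90891244, Cxcl2 at chr5:90903776-90903835, Cxcl3 at chr5:90786002-90786061 and Il6 at chr5:30013045-30013104, all on the plus strand.
Cxcl1: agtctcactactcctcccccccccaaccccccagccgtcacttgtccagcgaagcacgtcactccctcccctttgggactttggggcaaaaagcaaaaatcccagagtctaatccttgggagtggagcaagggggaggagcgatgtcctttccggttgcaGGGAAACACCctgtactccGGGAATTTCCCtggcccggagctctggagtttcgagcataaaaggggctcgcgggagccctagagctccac
Cxcl2: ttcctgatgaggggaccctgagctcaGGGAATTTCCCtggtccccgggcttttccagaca
Cxcl3: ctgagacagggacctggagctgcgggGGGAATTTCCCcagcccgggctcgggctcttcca
Il6: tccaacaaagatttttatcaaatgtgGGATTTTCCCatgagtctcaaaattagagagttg
The first bases of the matches lie 90, 71 and 70 bases before the start in Cxcl1 and 43 bases before it in Il6. Of 13 chemokine genes with a promoter window in the table, 6 held a match (Cxcl1, Cxcl2, Cxcl3, Cxcl9, Cxcl10 and Ccl20). The share was 8.00% of the genes past the floor with a window and, counted by window, 5.78% of all 32851 windows. Cxcl9 and Cxcl10 did not pass the floor, so matches stood before genes called higher and before genes under the floor alike. A match of letters is a description of the sequence and does not show binding.

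Cytokine and prostaglandin genes were also called higher in part. Of 18 cytokine and receptor genes, 7 were called higher and 1 lower, with a median of 0.65. With no floor 8 of 29 were called higher with a median of 0.15, and Tslp passed the floor through D1 alone. Il6, a factor that the study also used as a treatment, was at 78.1 CPM at D1 and 6.01 CPM at D0, or 13-fold higher (95% interval 11.3 to 15). Csf1, the growth factor of macrophages, was at 366 CPM at D1 and 132 CPM at D0 and Il1r1, the interleukin 1 receptor gene, at 72.6 CPM at D1 and 30.0 CPM at D0, while Il34, which acts on the same receptor as Csf1, was at 1.07 CPM at D1 and 6.67 CPM at D0. The Tslp receptor gene Crlf2 was at 6.83 CPM at D1 and 13.1 CPM at D0. Of 12 prostaglandin genes, 5 were called higher and none lower, with a median of 0.73. They ran along the pathway. The phospholipase gene Pla2g4a, which frees arachidonic acid, was at 71.7 CPM at D1 and 35.1 CPM at D0, the cyclooxygenase gene Ptgs2 at 150.3 CPM at D1 and 19.6 CPM at D0 and the prostaglandin E synthase gene Ptges at 138 CPM at D1 and 25.6 CPM at D0. The transporter gene Slco2a1 was at 29.5 CPM at D1 and 6.67 CPM at D0 and the receptor gene Ptgfr at 38 CPM at D1 and 10.7 CPM at D0. The second cyclooxygenase gene, Ptgs1, was at 58.7 CPM at D1 and 35.4 CPM at D0 and was not called. The thromboxane receptor gene Tbxa2r, which was not on that list, was lower, as given above.

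Feedback genes of the inflammatory pathways were higher in part. Of 17 NF-kappaB feedback and target genes, 5 were called higher and none lower, with a median of 0.47. They were Ptgs2, Nfkbiz, Tnfaip6, Tnfaip3 and Sod2. Nfkbiz, a nuclear inhibitor-like cofactor, was at 50.8 CPM at D1 and 18.4 CPM at D0, and Tnfaip6, which binds hyaluronan, at 63.4 CPM at D1 and 23.9 CPM at D0. The deubiquitinase gene Tnfaip3 was at 5.88 CPM at D1 and 1.74 CPM at D0 and the mitochondrial superoxide dismutase gene Sod2 at 263 CPM at D1 and 127 CPM at D0. The subunit genes Nfkb1 (9.78 CPM at D1 and 12.3 CPM at D0), Rela (57.5 CPM at D1 and 70.7 CPM at D0) and Relb (9.98 CPM at D1 and 15.3 CPM at D0) were all a little below D0. Among 13 STAT3 and acute phase genes, 3 were called higher and 1 lower. The higher ones were the serum amyloid gene Saa3 (5.32 CPM at D1 and 0.980 CPM at D0), the metalloprotease inhibitor gene Timp1 (1891 CPM at D1 and 648 CPM at D0) and Cebpd (236 CPM at D1 and 106 CPM at D0), and the lower one was the kinase gene Pim1, at 2.14 CPM at D1 and 7.05 CPM at D0. Socs3, the usual feedback gene of IL-6 signals, was at 25.4 CPM at D1 and 16.5 CPM at D0 and was not called.

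**Figure D3:**
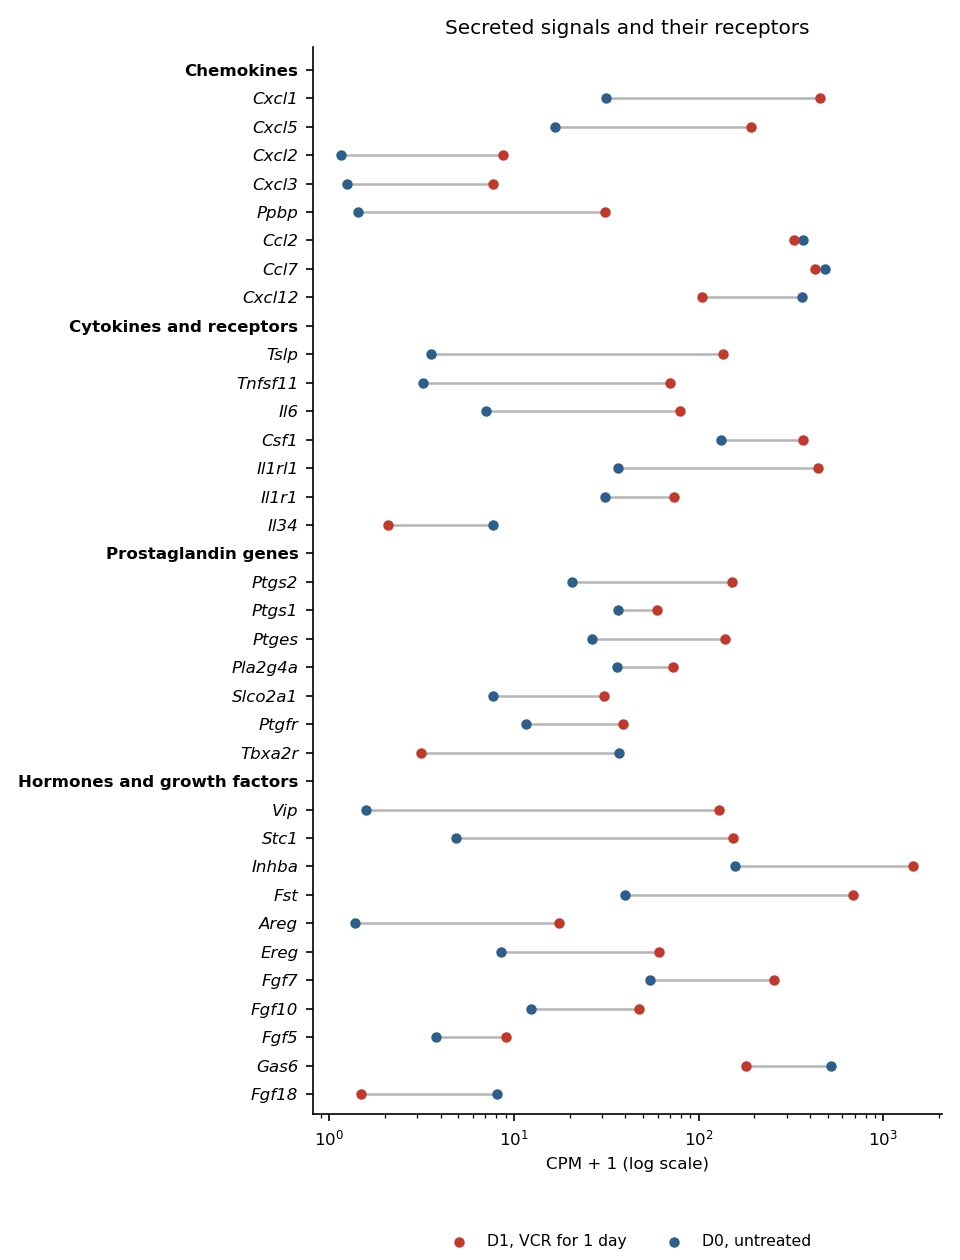
Levels of secreted signals and their receptors as CPM + 1 on a log axis, with D1 in red and D0 in blue, 1 library each; the grey line joins the 2 days of a gene. Red lies far to the right for Cxcl1, Tslp, Vip and Fst, close to blue for Ccl2 and Ccl7, and to the left for Cxcl12, Il34, Tbxa2r, Gas6 and Fgf18.

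Interferon genes ran against this pattern. Of 19 interferon-stimulated genes, none was called higher and 6 were called lower, with a median of -0.77, but 2 were called lower with a pseudocount of 5. The RNA-binding effector genes Ifit1 and Ifit3 were at 4.37 CPM at D1 and 16.1 CPM at D0 and at 5.46 CPM at D1 and 22.2 CPM at D0. Irf9, which carries the interferon signal to DNA, was at 12.3 CPM at D1 and 29.3 CPM at D0, and the ubiquitin-like modifier gene Isg15 at 10.3 CPM at D1 and 23.6 CPM at D0. Oasl2 (1.46 CPM at D1 and 7.10 CPM at D0) and Xaf1 (17.4 CPM at D1 and 37.1 CPM at D0) were the remaining calls. Genes of MHC class I, which present peptides and also answer to interferon, were not called, with 7 of 7 within 2-fold and H2-K1 at 180.1 CPM at D1 and 119 CPM at D0. In the complement list, the regulators that shield a cell were called higher, Cd55 at 95.4 CPM at D1 and 34.6 CPM at D0 and Cd59a at 236 CPM at D1 and 83.7 CPM at D0, whereas the component gene C2 was called lower, at 2.86 CPM at D1 and 7.04 CPM at D0.

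Genes that cAMP raises through CREB were called higher in 7 of 20 cases and lower in 3, with a median of 0.67. Vip, Stc1, Inhba, Ptgs2, Ereg and Areg, all named above, belong to this list, and so does Crem, an inducible modulator of CREB, at 87.8 CPM at D1 and 16.4 CPM at D0. Of these 7, Vip, Stc1 and Areg were under 5 CPM at D0 and passed the floor through D1 alone. On the other side stood Fos (73.5 CPM at D1 and 203 CPM at D0), Fosb (0.297 CPM at D1 and 5.82 CPM at D0) and the clock gene Per1 (5.20 CPM at D1 and 14.4 CPM at D0). Other CREB targets were not called, among them Nr4a1 (179 CPM at D1 and 111 CPM at D0) and Pde4d (12 CPM at D1 and 12.7 CPM at D0).

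Growth factors and the feedback genes of the ERK kinases were called higher in part. Of 24 secreted growth factors, 11 were called higher and 3 lower, beside the backgrounds of 6.63% and 5.92%. Among those called, Stc1, Areg and Ntf3 were under 5 CPM at D0 and passed the floor through D1 alone, and Fgf18 passed through D0 alone. The counts can therefore not be read as an excess over the backgrounds. With a floor of 20 CPM, 6 of 14 were called higher and 1 lower. Fgf7 and Fgf10, which act on epithelia, were at 254 CPM at D1 and 53.4 CPM at D0 and at 46.5 CPM at D1 and 11.4 CPM at D0. The neurotrophin gene Ntf3 was at 5.73 CPM at D1 and 2.01 CPM at D0. The stem cell factor gene Kitl (22.9 CPM at D1 and 6.56 CPM at D0) and Gdf15 (18.8 CPM at D1 and 5.50 CPM at D0) were higher as well. Areg and Ereg, both ligands of the EGF receptor, were among the largest changes, at 43.4-fold and 7.98-fold. Lower were Gas6 (179 CPM at D1 and 519 CPM at D0), the lymphatic factor gene Vegfc (5.59 CPM at D1 and 18 CPM at D0) and Fgf18 (0.475 CPM at D1 and 7.05 CPM at D0). Of 17 genes of the FGF and ERK feedback list, 6 were called higher and none lower, with a median of 0.53, and 3 were called with a pseudocount of 5. Phlda1 was at 92.3 CPM at D1 and 16.9 CPM at D0, Ier3 at 210.0 CPM at D1 and 76.1 CPM at D0 and the AP-1 gene Fosl1 at 56.9 CPM at D1 and 21.7 CPM at D0. The ETS factor genes Etv1 (11.7 CPM at D1 and 3.86 CPM at D0) and Etv5 (29.7 CPM at D1 and 13.2 CPM at D0) and the inhibitor gene Spry4 (20.9 CPM at D1 and 8.73 CPM at D0) completed the group. Etv1 was under 5 CPM at D0 and passed the floor through D1 alone. The receptors changed less. Of 14 receptor genes only the PDGF receptor gene Pdgfrb was called, lower, at 49.1 CPM at D1 and 174 CPM at D0, with Pdgfra at 85.4 CPM at D1 and 79.2 CPM at D0 and Egfr at 37.2 CPM at D1 and 35.1 CPM at D0. Immediate early genes divided, with 3 of 18 called higher (Fosl1, Ier3 and Fosl2) and 5 lower, Klf2, Klf4, Fos, Fosb and Mafk.

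The factors named by the study were followed gene by gene. Beside Il6, Nes, the gene behind the GFP reporter, was called higher at 29.8 CPM at D1, against 7.59 CPM at D0, or 3.92-fold higher (95% interval 3.43 to 4.49), and Fgf5 was at 8.05 CPM at D1 and 2.78 CPM at D0. Lif was at 5.59 CPM at D1 and 3.18 CPM at D0 and was not called. Nup210, a nucleoporin gene in the study's title, had 5 counts in each library. Of 25 other nucleoporin genes past the floor, 3 were called higher and none lower, with a median of 0.39, namely Nup35 (93.5 CPM at D1 and 37.6 CPM at D0), the membrane nucleoporin gene Ndc1 (62.5 CPM at D1 and 25.7 CPM at D0) and Nup43 (38.1 CPM at D1 and 18.3 CPM at D0). Sox2, the neural stem cell factor gene, was under the floor at 2.32 CPM at D1 and 1.33 CPM at D0, and of 7 neural stem and progenitor genes past the floor Nes alone was called.

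Another stretch of neighbouring genes was higher at D1, the epidermal differentiation region of chromosome 3, again seen only after the values were known. This region holds genes for the cornified envelope, the tough shell of skin surface cells. Sprr2k, a small proline-rich protein gene, was at 324 CPM at D1, against 18.5 CPM at D0, or 17.5-fold higher (95% interval 16.2 to 18.9), and Sprr1a was at 28.4 CPM at D1 and 0.898 CPM at D0. The involucrin gene Ivl was at 8.82 CPM at D1 and 1.80 CPM at D0, the late envelope gene Lce1g at 10.2 CPM at D1 and 0.218 CPM at D0 and the pseudogene Sprr2g at 12.6 CPM at D1 and 0.218 CPM at D0. Of 36 genes matched there, 7 passed the floor and all of these were called higher, but Sprr2k alone among them had 5 CPM at D0, so the others passed through D1. In the D2 library Sprr2k was at 19 CPM, close to its D0 level, and Lce1g at 0.760 CPM. Keratin genes divided. Krt20 was called higher, at 9.63 CPM at D1 and 1.41 CPM at D0, Krt7 and Krt14 were called lower, at 7.16 CPM at D1 and 34.3 CPM at D0 and at 0.208 CPM at D1 and 8.68 CPM at D0, and Krt18 (5.59 CPM at D1 and 8.0 CPM at D0) and Krt19 (16.8 CPM at D1 and 12 CPM at D0) were not called. Sprr2 and Lce1 copies are alike in sequence, and the division of reads among them was not tested.

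Cholesterol synthesis had the most genes called lower of the 71 lists. Of 22 genes, 13 were called lower and none higher, with a median of -1.31 at D1 and -1.76 at D2, both against the same D0 library. The calls ran along the early part of the pathway. Hmgcs1, which makes HMG-CoA, was at 33.4 CPM at D1 and 173 CPM at D0, or 5.16-fold lower (95% interval 4.85 to 5.51), and Mvd, which makes isopentenyl diphosphate, was at 9.78 CPM at D1 and 49.9 CPM at D0, or 5.11-fold lower (95% interval 4.54 to 5.76). Idi1 (26 CPM at D1 and 147 CPM at D0), Fdps (111 CPM at D1 and 487 CPM at D0) and Fdft1 (38 CPM at D1 and 259 CPM at D0), which carry the chain on to squalene, were all called lower. Late steps were mixed. Cyp51, the sterol demethylase, was called lower, at 60.3 CPM at D1 and 221 CPM at D0. Several later steps were not called, with Hsd17b7 at 88 CPM at D1 and 91.8 CPM at D0, Ebp at 61.6 CPM at D1 and 78.5 CPM at D0 and Sc5d at 160.0 CPM at D1 and 203 CPM at D0. Dhcr7, at 20.1 CPM at D1 and 30.2 CPM at D0, was not called either. Pmvk (27.1 CPM at D1 and 27.5 CPM at D0) and Ggps1 (55.3 CPM at D1 and 49.1 CPM at D0), a branch enzyme that leads away from sterols, were nearly level.

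The regulators of the pathway were lower with it. Of 18 genes for SREBP control, uptake and efflux, none was called higher and 7 were called lower, with a median of -0.60. Srebf2, the main activator of the sterol genes, was at 26.8 CPM at D1 and 104 CPM at D0, or 3.88-fold lower (95% interval 3.61 to 4.17), and Srebf1, its relative for fatty acid genes, was at 16.1 CPM at D1 and 47.5 CPM at D0. The sterol carrier gene Stard4 (14.6 CPM at D1 and 32.7 CPM at D0), Apoe (52.9 CPM at D1 and 111 CPM at D0) and the phosphatase gene Lpin1 (6.15 CPM at D1 and 14.5 CPM at D0) were lower too. Insig2 took the opposite side from Insig1, at 128 CPM at D1 and 69.1 CPM at D0, without reaching 2-fold, and Scap, the escort of SREBP, was at 31.1 CPM at D1 and 34.2 CPM at D0. Genes that answer to sterol excess through liver X receptors were not higher, with the efflux pump gene Abca1 at 20.1 CPM at D1 and 31.3 CPM at D0 and the ubiquitin ligase gene Mylip at 9.77 CPM at D1 and 16.3 CPM at D0.

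Fatty acid synthesis followed in part. Of 12 genes, 5 were called lower and none higher, with a median of -0.90. Fasn, fatty acid synthase, was at 14.6 CPM at D1 and 61.2 CPM at D0, or 4.19-fold lower (95% interval 3.80 to 4.62), and the desaturase gene Scd2 was at 109.8 CPM at D1 and 462 CPM at D0, or 4.21-fold lower (95% interval 4.06 to 4.36). Genes that desaturate and lengthen the chains were also called, with Fads1 at 50.7 CPM at D1 and 119 CPM at D0, Fads2 at 22 CPM at D1 and 55.4 CPM at D0 and Elovl6 at 16.9 CPM at D1 and 38.3 CPM at D0. Scd1, the close relative of Scd2, was at 38.2 CPM at D1 and 30.1 CPM at D0 and was not lower. Fatty acid oxidation stood still by comparison, with 1 of 19 genes called higher (Angptl4), 1 lower (Ech1, 60.6 CPM at D1 and 136 CPM at D0) and a median of -0.03, a value so near 0 that its sign turned under median ratio, TMM and reduced-total scaling.

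**Figure D4:**
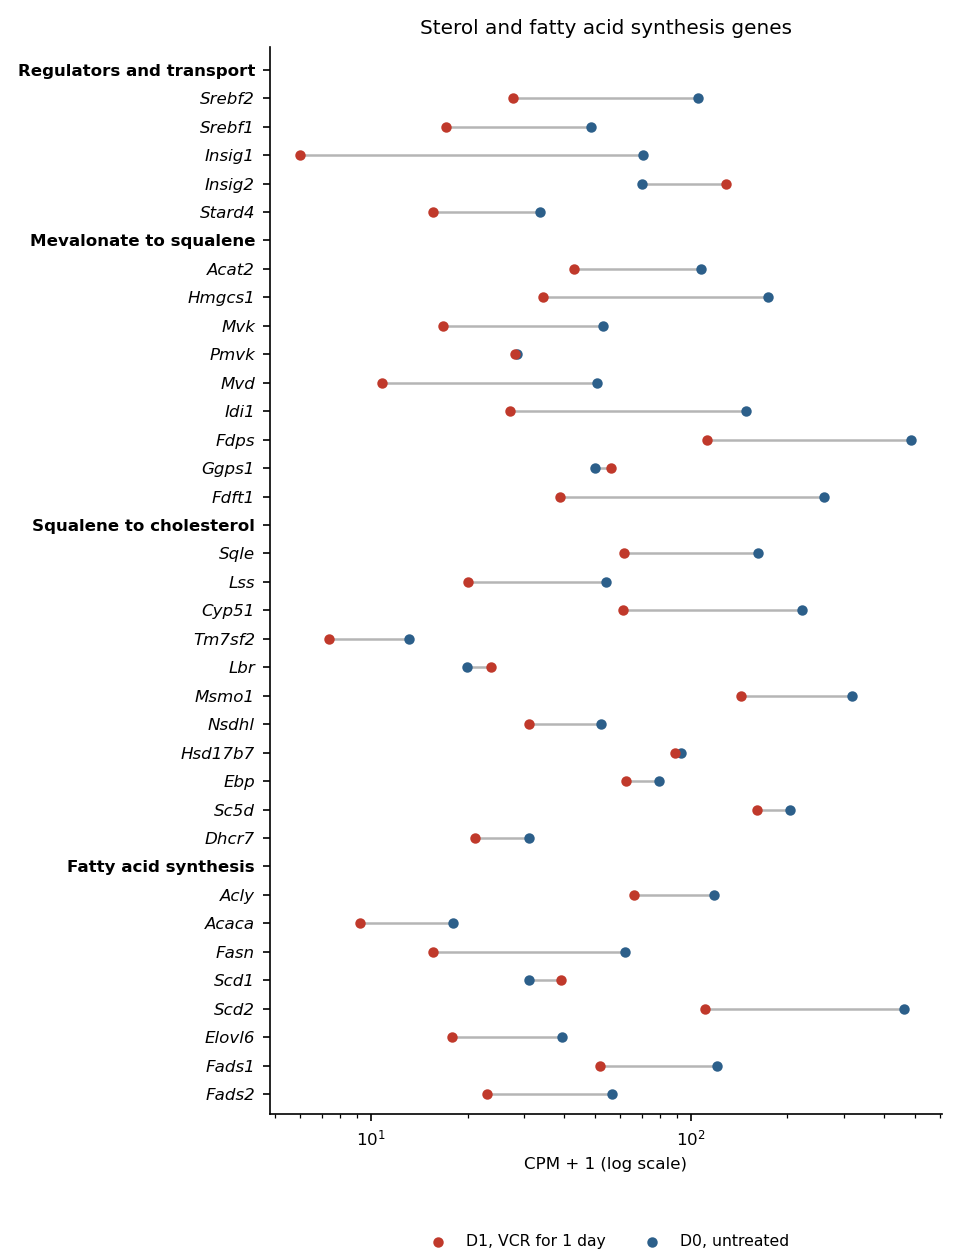
Levels of sterol and fatty acid genes as CPM + 1 on a log axis, with D1 in red and D0 in blue, 1 library each, in the order of the pathway from top to bottom. Red lies left of blue for most genes, furthest for Insig1, Fdft1 and Idi1, and right of it for Insig2, Ggps1, Lbr and Scd1.

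The promoter of Hmgcs1 is shown because it alone, of 17 cholesterol genes with a window, held the letters TCACNCCAC, a form of the sterol regulatory element, on either strand. All 32851 windows held them in 1.24% of cases and genes past the floor with a window in 1.42%, and none of 15 regulator genes or 11 fatty acid genes did. Capitals mark the match, whose first base lies 137 bases before the start, at chr13:119690101-119690350 of GRCm38.p6 on the plus strand, from RefSeq. That no match was found in the other windows says only that these letters are not there.
Hmgcs1: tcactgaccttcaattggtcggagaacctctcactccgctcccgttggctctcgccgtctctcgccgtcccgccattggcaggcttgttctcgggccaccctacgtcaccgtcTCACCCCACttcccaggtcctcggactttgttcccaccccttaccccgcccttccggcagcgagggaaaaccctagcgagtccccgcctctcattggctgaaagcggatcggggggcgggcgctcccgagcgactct
Its transcript was lower at D1, as were those of 12 other genes of the pathway that hold no such letters in their windows or have no window in the table.

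Matrix genes were lower in several families at the same time. Of 19 collagen chains, 8 were called lower and none higher, with a median of -0.83. The chains of the main fibrils were among them, Col1a1 at 1706 CPM at D1 and 5658 CPM at D0, Col1a2 at 1145 CPM at D1 and 3597 CPM at D0 and Col3a1 at 573 CPM at D1 and 1265 CPM at D0. So were the chains that set the width of these fibrils, Col5a1 at 763 CPM at D1 and 1964 CPM at D0, Col5a2 at 266 CPM at D1 and 607 CPM at D0 and Col11a1 at 44.6 CPM at D1 and 145 CPM at D0. The short chain Col8a1 was at 89.4 CPM at D1 and 268 CPM at D0 and the basement membrane chain Col4a2 at 217 CPM at D1 and 469 CPM at D0. Beaded-filament chains were not called, with Col6a1 at 309.6 CPM at D1 and 364 CPM at D0 and Col6a3 at 128 CPM at D1 and 156 CPM at D0. The enzymes that process collagen moved less, with 2 of 17 called lower, the prolyl hydroxylase gene P4ha3 (37.2 CPM at D1 and 94.3 CPM at D0) and the C-proteinase enhancer gene Pcolce (570.4 CPM at D1 and 1146 CPM at D0). The collagen chaperone gene Serpinh1 was at 1187 CPM at D1 and 2236 CPM at D0, just short of 2-fold.

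Genes of elastic fibres were mostly on the lower side as well. Of 21 genes, 8 were called lower and 1 higher, with a median of -0.67. Beside Eln, the microfibril genes Fbn1 and Mfap4 were at 132 CPM at D1 and 295 CPM at D0 and at 49.5 CPM at D1 and 147 CPM at D0. The fibulin genes Fbln2 and Fbln5 were at 867 CPM at D1 and 2549 CPM at D0 and at 708 CPM at D1 and 1602 CPM at D0. Emilin1, of the elastin surface, was at 28.9 CPM at D1 and 82.2 CPM at D0, and Lox, the oxidase that crosslinks collagen and elastin, at 1093 CPM at D1 and 2899 CPM at D0. Ltbp1, which stores latent TGF-beta in the matrix, was the exception at 126 CPM at D1 and 31.2 CPM at D0, or 4.04-fold higher (95% interval 3.78 to 4.31). Among 13 proteoglycan and matricellular genes, 6 were called lower and 3 higher. Asporin, Aspn, a binder of TGF-beta, was at 108 CPM at D1 and 643 CPM at D0, or 5.96-fold lower (95% interval 5.76 to 6.18), and biglycan, Bgn, was at 1182 CPM at D1 and 2499 CPM at D0. Podn, Ogn, Vcan and Fmod were the other 4 on the lower side, between 2.09-fold for Fmod and 4.08-fold for Podn. On the higher side stood lumican, Lum, at 263 CPM at D1 and 97.5 CPM at D0, the tenascin gene Tnc at 2148 CPM at D1 and 831 CPM at D0 and the thrombospondin gene Thbs2 at 1880.0 CPM at D1 and 734 CPM at D0. The genes of this group therefore went both ways within a day, though Lum was the only proteoglycan gene called higher.

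Proteases were as divided. Of 22 genes, 5 were called higher and 5 lower, and the median turned from positive to negative with a floor of 20 CPM. The plasminogen system was on the higher side. Its activators Plau and Plat were at 10.8 CPM at D1 and 2.56 CPM at D0 and at 362 CPM at D1 and 116 CPM at D0, and the receptor gene Plaur was at 88.1 CPM at D1 and 28.7 CPM at D0. Stromelysin, Mmp3, was at 107 CPM at D1 and 33.4 CPM at D0, and the inhibitor gene Timp1 was given above. On the lower side, the membrane protease gene Mmp14 was at 410.4 CPM at D1 and 1086 CPM at D0, Mmp11 at 33.9 CPM at D1 and 227 CPM at D0 and Mmp23 at 31.8 CPM at D1 and 86.5 CPM at D0. The aggrecanase genes Adamts1 and Adamts5 were at 76.6 CPM at D1 and 355 CPM at D0 and at 29.4 CPM at D1 and 181 CPM at D0. Of 19 integrins and laminins, Itga6 was called higher (39.3 CPM at D1 and 17.6 CPM at D0), and Itgb5 (142 CPM at D1 and 403 CPM at D0) and Itga11 were called lower.

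The contractile genes of fibroblasts did not follow the matrix at D1. Of 24 genes for actin, myosin and their partners, 2 were called higher and none lower, with a median of 0.34. The calls were 8.33% of the list, near the 6.63% of all genes tested. Cnn1, the smooth muscle calponin gene, was at 237 CPM at D1 and 56.3 CPM at D0, or 4.21-fold higher (95% interval 4.01 to 4.42), and Myl9, a myosin light chain gene, was at 1668 CPM at D1 and 638 CPM at D0. Smooth muscle actin, Acta2, was at 6589 CPM at D1 and 4957 CPM at D0, transgelin, Tagln, at 1328 CPM at D1 and 826 CPM at D0, and Tpm1 at 2539 CPM at D1 and 1321 CPM at D0, all above D0 by less than 2-fold. The heavy chain genes Myh9 (80.5 CPM at D1 and 158 CPM at D0) and Myh10 (42.3 CPM at D1 and 78.3 CPM at D0) were below D0, also by less than 2-fold. In the D2 library Acta2 was at 2074 CPM, Tagln at 377 CPM and Tpm1 at 1021 CPM, and the list median against D0 was -0.66. Acta2, Tagln and Tpm1 were thus above their D0 level on the first day and below it on the second, in single libraries. Mesenchymal transcription factors other than Twist2 mostly stayed close to D0, with Snai2 at 152 CPM at D1 and 123 CPM at D0, Twist1 at 54.3 CPM at D1 and 50.1 CPM at D0 and Prrx1 at 269 CPM at D1 and 182 CPM at D0. Runx1, at 15.6 CPM at D1 and 33.8 CPM at D0, and Sox9 were called lower.

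**Figure D5:**
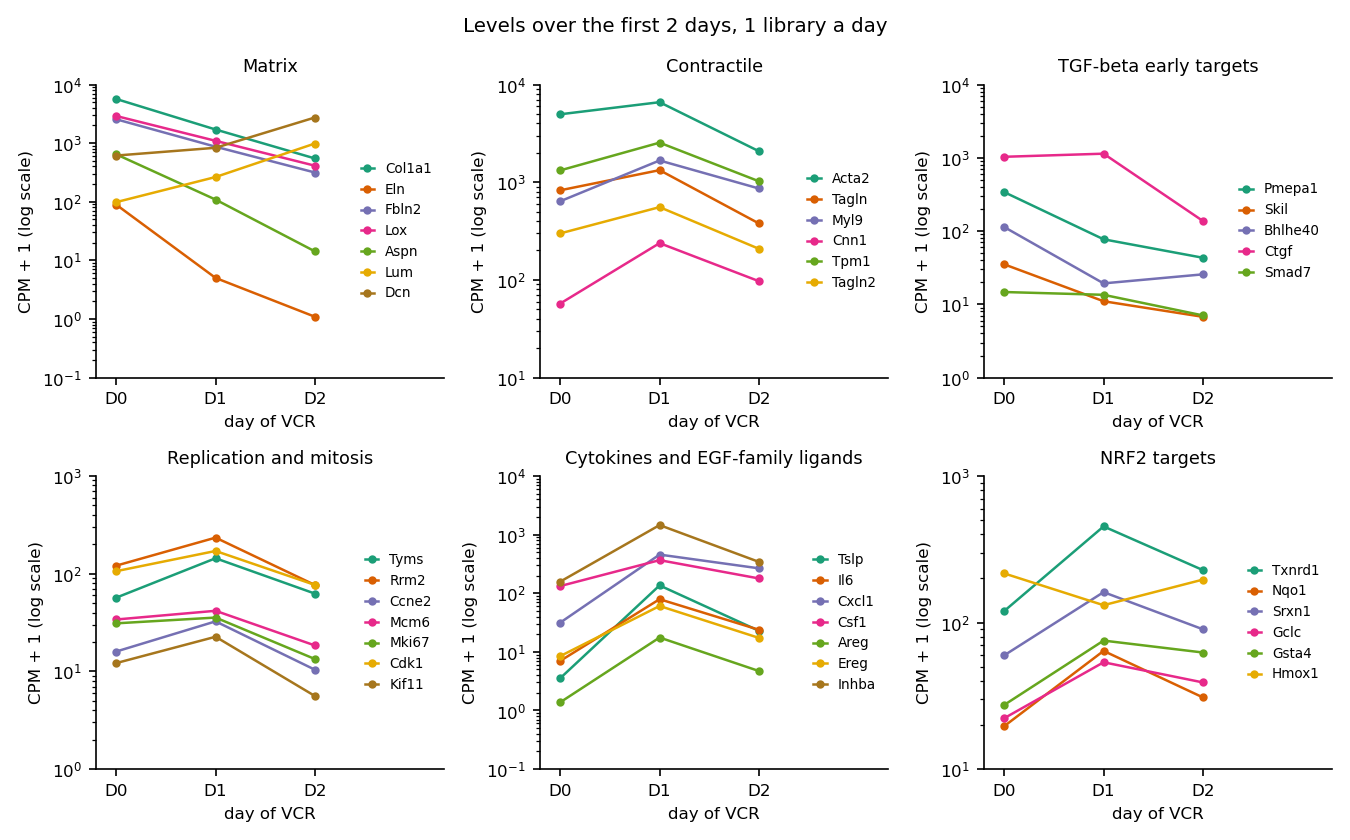
Levels of selected genes in 6 groups at D0, D1 and D2 as CPM + 1 on log axes, 1 library a day, with lines joining the days of a gene. Collagen, elastin and Aspn are lower on each later day while Lum and Dcn are higher, the contractile, replication and NRF2 genes drawn other than Hmox1 peak at D1, and Ctgf is near its D0 level at D1 and lower at D2.

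Stress pathways differed from each other. In the amino acid response that ATF4 drives, 7 of 28 genes were called lower and 1 higher, with a median of -0.37. The pseudokinase gene Trib3 was at 13.8 CPM at D1 and 128 CPM at D0, or 9.23-fold lower (95% interval 8.39 to 10.2), and the stress-induced chromatin gene Nupr1 at 139 CPM at D1 and 781 CPM at D0. The factor genes Ddit3, known as CHOP, and Atf5 were at 72.7 CPM at D1 and 219 CPM at D0 and at 12.7 CPM at D1 and 34.6 CPM at D0. The transporter gene Slc7a5 (24.8 CPM at D1 and 66.9 CPM at D0) and the mitochondrial enzyme gene Pck2 (34 CPM at D1 and 98.8 CPM at D0) were lower too. Enzymes that make amino acids were not called lower, with asparagine synthetase, Asns, at 452 CPM at D1 and 292 CPM at D0, Psat1 at 193 CPM at D1 and 101 CPM at D0 and Phgdh at 549 CPM at D1 and 348 CPM at D0. Cth, which makes cysteine, was called higher at 28.8 CPM at D1 and 12.4 CPM at D0. Atf4 itself was at 125 CPM at D1 and 179 CPM at D0.

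Matches to promoter letters stood before some genes of this list called lower and before some not called, and windows of both kinds are shown. How matches divide by call over the whole list was not tested. Capitals mark TGATGNAA, letters of the element bound by ATF4 with C/EBP factors, searched on both strands in RefSeq windows of GRCm38.p6. The stretch of Nupr1 lies at chr7:126625547-126625606 on the minus strand, Pck2 at chr14:55540137-55540196 and Chac1 at chr2:119351023-119351082 on the plus strand, and Asns at chr6:7693210-7693269 on the minus strand, each written in the direction of its gene.
Nupr1: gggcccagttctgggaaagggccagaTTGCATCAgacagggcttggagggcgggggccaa
Pck2: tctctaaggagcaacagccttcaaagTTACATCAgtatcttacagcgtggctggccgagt
Chac1: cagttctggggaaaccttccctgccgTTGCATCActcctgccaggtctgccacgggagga
Asns: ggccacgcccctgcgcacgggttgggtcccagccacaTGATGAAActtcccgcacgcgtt
In the first 3 the match lies on the opposite strand, and in Asns on the strand of the gene. Of 24 genes of the list with a window, 9 held a match, against 2.57% of 8170 genes past the floor with a window. Counted by window, the share was 3.97% of all windows. Nupr1 and Pck2 were called lower, Chac1 was at 25.6 CPM at D1 and 29.4 CPM at D0, and Asns was above D0 by less than 2-fold. These motifs and genes were chosen after the values were seen.

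Genes of the antioxidant factor NRF2 were called higher in 5 of 19 cases and lower in none, with a median of 0.13. Txnrd1, thioredoxin reductase, was at 452 CPM at D1 and 119 CPM at D0, or 3.80-fold higher (95% interval 3.67 to 3.93), and the quinone reductase gene Nqo1 was at 63.1 CPM at D1 and 18.6 CPM at D0. The sulfiredoxin gene Srxn1 was at 160.2 CPM at D1 and 58.8 CPM at D0, the transferase gene Gsta4 at 74.3 CPM at D1 and 26.4 CPM at D0 and the glutathione synthesis gene Gclc at 52.6 CPM at D1 and 21.3 CPM at D0. Hmox1, the haem oxygenase gene that NRF2 shares with other regulators, was at 130.3 CPM at D1 and 215 CPM at D0, and the metallothionein gene Mt1 at 1032 CPM at D1 and 1752 CPM at D0, both below D0 by less than 2-fold. The unfolded protein response had 1 of 17 genes called, Herpud1, lower at 42.8 CPM at D1 and 114 CPM at D0, and the chaperone gene Hspa5 was at 1038 CPM at D1 and 1766 CPM at D0. Of 14 heat shock genes, Hsph1 (119 CPM at D1 and 39.9 CPM at D0) and Hspb8 (120.3 CPM at D1 and 55.2 CPM at D0) were called higher. Hypoxia and glycolysis genes had 6 of 30 called lower and none higher, with a median of -0.33. Ndrg1 was at 13.7 CPM at D1 and 85.7 CPM at D0, Ankrd37 at 0.446 CPM at D1 and 7.18 CPM at D0 and the glycolytic gene Pfkl at 44.5 CPM at D1 and 133 CPM at D0. The oxygen sensor gene Egln1 (21.7 CPM at D1 and 58.1 CPM at D0), Pdk1 (8.53 CPM at D1 and 20.9 CPM at D0) and Aldoc (4.31 CPM at D1 and 10.7 CPM at D0) were the others, while Vegfa was at 42.3 CPM at D1 and 52.8 CPM at D0 and was not called. The labels do not give the oxygen level of either library, and oxygen cannot be told apart from the other differences between the days.

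Genes of DNA replication lay mostly above D0, by less than 2-fold in most cases. Of 29 genes, 7 were called higher and none lower, with a median of 0.62. The count was 3 with a pseudocount of 5 and 2 under quantile normalization. The primase gene Prim1 was at 46.9 CPM at D1 and 16.3 CPM at D0 and thymidylate synthase, Tyms, at 143 CPM at D1 and 55.9 CPM at D0. The cyclin genes of the entry into S phase, Ccne1 and Ccne2, were at 97.8 CPM at D1 and 43.6 CPM at D0 and at 31.5 CPM at D1 and 15 CPM at D0. The flap nuclease gene Fen1 (46.4 CPM at D1 and 21.1 CPM at D0) and Gins3 (11.1 CPM at D1 and 4.98 CPM at D0) were also higher. The helicase genes Mcm2 (33.7 CPM at D1 and 26.2 CPM at D0) and Mcm7 (43.6 CPM at D1 and 40.8 CPM at D0) differed less. None of 24 mitosis genes was called, yet all 24 lay above D0, with a median of 0.66. Over all genes tested, 53.2% lay above D0, with a median of 0.04. The mitosis genes ran from Cdc20 at 63.5 CPM at D1 and 61.2 CPM at D0 to Bub1b at 21.5 CPM at D1 and 10.9 CPM at D0. In the D2 library the medians against D0 were -0.36 for replication and -0.80 for mitosis, below 0 for both. Among cyclin D and inhibitor genes, the pocket protein gene Rbl1 (21.2 CPM at D1 and 6.97 CPM at D0) and the inhibitor gene Cdkn2d (64.1 CPM at D1 and 23.8 CPM at D0) were called higher, Cdkn1c lower, and Cdkn1a, the p53 target p21, was at 1553 CPM at D1 and 1398 CPM at D0. Of 17 p53 targets, 2 were called higher, Plk2 (523 CPM at D1 and 199 CPM at D0) and Pmaip1 (77.8 CPM at D1 and 38 CPM at D0), and the death gene Bbc3 was called lower at 4.84 CPM at D1 and 23.7 CPM at D0.

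Transcripts of the mitochondrial genome were lower at D1, while nuclear genes for oxidative phosphorylation mostly lay a little above D0. Of 23 nuclear genes for oxidative phosphorylation, 21 lay above D0, with a median of 0.36, beside 53.2% of all genes tested. Only 2 were called higher, cytochrome c, Cycs (728 CPM at D1 and 302 CPM at D0), and Uqcrfs1 (267 CPM at D1 and 131 CPM at D0). That is 8.7%, near the 6.63% of all genes tested. All 13 genes of the mitochondrial genome lay below D0, and 5 of them were called (3 under quantile normalization), with a median of -0.86. The largest differences were in subunit genes of complex I, with mt-Nd3 at 43.4 CPM at D1 and 183 CPM at D0, mt-Nd5 at 453 CPM at D1 and 1194 CPM at D0 and mt-Nd6 at 120.0 CPM at D1 and 266 CPM at D0. The oxidase subunit genes mt-Co2 and mt-Co3 were at 1968 CPM at D1 and 4059 CPM at D0 and at 4768 CPM at D1 and 9541 CPM at D0. Mitochondrial counts took a smaller share of the D1 library, as given above. Ribosomal protein genes were level, with none of 30 called and a median of -0.13. Genes of ribosome assembly were above D0 by less than 2-fold where they moved, with Nop56 at 232 CPM at D1 and 134 CPM at D0, and Polycomb and DNA methylation genes had none of 17 called.

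Ligands and receptors of patterning pathways made up the last group. In the IGF and imprinted list 5 of 15 genes were called lower and none higher, with a median of -0.82. The binding protein genes Igfbp3 and Igfbp5 were at 88.6 CPM at D1 and 222 CPM at D0 and at 95.1 CPM at D1 and 248 CPM at D0. The imprinted genes Mest and Peg3 were at 51.8 CPM at D1 and 223 CPM at D0 and at 50.9 CPM at D1 and 117 CPM at D0, and the imprinted inhibitor gene Cdkn1c was given above. Wnt ligands and antagonists had 3 of 16 called higher and 4 lower, and Wnt11, Frzb, Rspo1 and Wnt9a among these were under 5 CPM in the lower library. The ligand genes Wnt11 and Wnt4 were at 22.9 CPM at D1 and 2.18 CPM at D0 and at 31.8 CPM at D1 and 10.3 CPM at D0, and the decoy receptor gene Frzb at 14.7 CPM at D1 and 2.91 CPM at D0. Against them, the receptor gene Fzd2 was at 21.2 CPM at D1 and 98 CPM at D0, the R-spondin gene Rspo3 at 13.52 CPM at D1 and 49.3 CPM at D0 and Rspo1 at 2.29 CPM at D1 and 7.65 CPM at D0, and the ligand gene Wnt9a was the remaining call. Of 4 Notch genes past the floor, the ligand gene Jag1 (3.09 CPM at D1 and 17.4 CPM at D0) and the target gene Hes1 (33.1 CPM at D1 and 102 CPM at D0) were called lower. The hedgehog coreceptor gene Cdon was at 5.56 CPM at D1 and 13.8 CPM at D0 and was the single call among 6 genes of that pathway. Lysosomal genes had 2 of 21 called, both lower, or 9.52% beside 5.92% of all genes tested. They were the cathepsin gene Ctsk (188 CPM at D1 and 504 CPM at D0) and the autophagy receptor gene Sqstm1 (403 CPM at D1 and 819 CPM at D0).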

How the data were processed

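The deposited table gives estimated counts per gene symbol, which the authors made with kallisto 0.43.1, a read-to-transcript quantifier, per the submitters' processing notes, which name the build GRCm38. Not given in the sources used here are the annotation, the use of strand and the step from transcripts to genes. The column of D1 was set against that of D0. CPM were computed from column totals. Differences were taken between log2(CPM + 1) values, which makes changes of low genes look smaller, and genes with 5 CPM or more in either library were tested. Genes were called at a difference of 1 or more (2-fold). CPM ratios carry no pseudocount. Their 95% intervals are exact, from the binomial distribution of a gene's rounded counts given their sum, and cover counting error only. With 1 library a side no standard deviation or p-value can be given.

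The comparison, its 71 gene lists and the rule for named genes were chosen with earlier results of these data known. The rule took the 15 genes that led in each direction at 20 CPM or more on either day (predicted genes and pseudogenes excepted), those ranked 16 to 30, up to 5 called genes of each list and direction, the least and most changed gene of a list, and all cocktail targets and study factors. Genes named outside the rule, such as Rassf6, Pf4, Crlf2, Calcrl and those of the chromosome 3 region, were chosen after their values were seen. Some genes the rule took are not reported here. Of the symbols, 26237 matched RefSeq genes of GRCm38.p6, the source of positions and promoter windows, which run from 250 bases before to 50 bases after a start. Of the names in the lists, 4 were not in the table, and 1260 different genes were.

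Calls and intervals were tested on simulated data, drawn from the D0 levels with planted changes past the threshold and counting error only. That checks the computation and says nothing of the spread between cultures or of the calls in the real libraries. Alternatives were pseudocounts of 0.1 and 5, floors of 1 CPM, 20 CPM and none, other fold thresholds, and median ratio, TMM, reduced-total and quantile scaling. Python 3.11.15 with numpy 2.4.6, pandas 2.3.3 and scipy 1.17.1 was used, and R 4.3.3 with edgeR 4.0.16 gave the TMM factors. ATAC-seq samples (4) were not used here.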

Additional observations from a re-analysis of the deposited data

How the results depend on the processing

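Calls moved most with the threshold and the treatment of low genes. A pseudocount of 5 gave 398 genes higher and 361 lower, a floor of 20 CPM gave 412 and 407, a threshold of 1.5 on the log2 scale gave 246 and 213, and a 1.5-fold threshold gave 1808 and 1527. Every other setting stayed within 1.5 times of the 698 higher and 623 lower genes, from 635 to 903 higher and from 648 to 730 lower. Higher genes made up 52.8% of all calls, and between 49.5% and 55.3% under the 11 other settings. The median difference of all genes lay between 0.01 and 0.05 under the scalings tried. Of the 9 settings run for 258 named genes, the pseudocounts and floors cannot turn the sign of a difference. None of the 258 genes changed direction under the scalings, which shifted the median of all genes so little that a called gene could hardly turn. Under a pseudocount of 5, 37 of them no longer passed 2-fold, under a floor of 20 CPM 38 were no longer called, and under quantile normalization 20. No paired analysis was possible because each group has 1 library, and for the same reason no library could be left out. The spread between cultures is therefore unknown, and counting depth limits only genes near the floor.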

Other observations

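Smaller groups gave further values. Of 2 placental prolactin genes past the floor, Prl2c2 was at 24.4 CPM at D1 and 4.51 CPM at D0 and Prl2c3 at 9.85 CPM at D1 and 0.473 CPM at D0, and both were called higher, but both were under 5 CPM at D0 and passed the floor through D1 alone. Their copies are near-identical and the division of reads between them was not tested. In the retinoid list, 2 of 11 genes were called higher, the dehydrogenase genes Aldh1a7 (28.5 CPM at D1 and 5.71 CPM at D0) and Aldh1a3 (14.1 CPM at D1 and 2.72 CPM at D0), and the receptor gene Rara was called lower at 7.30 CPM at D1 and 19.8 CPM at D0. Glucocorticoid targets divided, with Errfi1, an inhibitor of the EGF receptor, at 519 CPM at D1 and 91.9 CPM at D0 and the kinase gene Sgk1 at 272 CPM at D1 and 96.9 CPM at D0 called higher, and Klf9 (29.5 CPM at D1 and 77.4 CPM at D0) with Cdkn1c called lower. In the circadian list Per1 and Per3 (2.11 CPM at D1 and 5.26 CPM at D0) were called lower of 12 genes, and the core genes Arntl (34.8 CPM at D1 and 28.5 CPM at D0), Clock (11.9 CPM at D1 and 12.5 CPM at D0) and Cry1 (13.4 CPM at D1 and 13.1 CPM at D0) were level. Among lineage markers, the neural crest receptor gene Ednrb (21.7 CPM at D1 and 79.3 CPM at D0) and the lipase gene Lpl of adipocytes (84.1 CPM at D1 and 219 CPM at D0) were called lower, and the triglyceride synthesis gene Dgat2 (16.6 CPM at D1 and 4.57 CPM at D0) was called higher.

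Only 2 of the genes called lower had 0 counts at D1, the ribosomal protein pseudogenes Rps13-ps2 (25 CPM at D0) and Rpl28-ps1 (13.46 CPM at D0). Processed pseudogenes are copies of expressed genes, and the division of estimated counts between parent and copy was not tested.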
